A study of Mus musculus with 9 samples.

Results

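Transforming growth factor beta (TGF-beta) and the activins signal through pairs of serine/threonine kinase receptors, and the 10 genes described here are parts of that pathway in mouse naive CD4+ T cells. They are the ligand gene Tgfb1, the type II receptor genes Tgfbr2 and Acvr2a, the type I receptor genes Tgfbr1, Acvr1b and Acvr1c, the signal transducer Smad3, the inhibitory Smad7, and the repressors Ski and Skil. They were taken by gene symbol from the 55487 gene identifiers of the deposited tables, and were chosen by measured values, with their counts and TPM in all 3 groups known. Their own levels and differences are therefore given as a description, without p-values.

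Naive CD4+ T cells, helper T cells that have not yet met antigen, came from lymph nodes of wild-type (WT) C57BL6/J mice, and polyadenylated RNA was sequenced in 9 libraries. Of these, 3 are of freshly isolated, untreated cells (fresh), 3 of cells kept for 20 h in vitro without interleukin-1 beta (cultured), and 3 of cells kept for 20 h with recombinant IL-1b, an inflammatory cytokine, at 10 ng/mL (IL-1b-treated). Both cultured groups share the culture, so that the cytokine is read against cultured cells and the culture against fresh cells. The labels give no age and no other agent in the medium, and do not say whether replicates are separate animals or cultures, so the spread between replicates may be technical only.

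A TGF-beta dimer binds the type II receptor Tgfbr2, which then phosphorylates the type I receptor Tgfbr1, while activins bind Acvr2a or Acvr2b and signal through Acvr1b or Acvr1c. The active type I receptor phosphorylates Smad2 and Smad3, which join Smad4 and bind DNA. Smad7 blocks the receptor, and Ski and Skil hold Smad complexes in a repressed state. In T cells TGF-beta is best known for restraining activation and for its part in the making of regulatory and IL-17-producing cells.

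Levels of 1 gene across libraries are given in CPM, counts relative to library totals scaled with TMM. Levels of different genes are compared in TPM, in which counts are divided by transcript length before they are scaled to a fixed total. Differences are log2 fold changes from 1 edgeR fit over all 9 libraries, with ± giving their SE, while ± beside a level is the SD of n = 3 libraries. A gene other than these 10 is said to have risen, fallen or been called where edgeR's quasi-likelihood test gave a Benjamini-Hochberg adjusted p under 0.05 over all 13043 genes tested. All 10 genes entered that test, Acvr1c through its level in the cells kept in culture alone, so that it had to differ from fresh cells. Library totals ranged from 13518814 to 23056686 counts.

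The libraries carried the markers of the labelled cell type. All 10 naive CD4 T cell markers were detected in every group, with summed levels of 5780 to 5940 TPM in fresh, 4260 to 4300 TPM in cultured and 3640 to 3700 TPM in IL-1b-treated libraries. Markers of other cells were present too and moved with the groups. The 8 B cell markers summed to 455 to 512, 182 to 192 and 161 to 177 TPM in the same order, nearly all of it Ighm, and all 8 were lower in cultured than in fresh cells. The sums were 39.5 to 46, 6.75 to 8.83 and 5.06 to 6.73 TPM for 5 natural killer cell markers, and 11.7 to 34.9, 0.12 to 0.4 and 0 to 2.22 TPM for 5 neutrophil markers. The 8 myeloid markers summed to 68.9 to 81.9, 83 to 88.1 and 90 to 101 TPM, of which Cst3 gave most, while Lyz2 went from a mean of 12.5 TPM in fresh to 0.1 TPM in cultured cells. The 8 effector or memory T cell markers summed to 16.8 to 32.3, 3.11 to 4.42 and 2.18 to 2.93 TPM, and the 6 regulatory T cell markers to 57.8 to 59.9, 317 to 326 and 288 to 328 TPM. Most of the latter sum was Tnfrsf18, with means of 48.8, 269 and 262 TPM, besides Ctla4 and Il2ra, all of which activated T cells express too. The defining gene Foxp3 had 1.27, 1.81 and 1.16 TPM, and Ikzf2 had 2.46, 1.02 and 0.207 TPM. In CPM, Foxp3 had means of 1.74, 3.72 and 3.25. By the edgeR test it rose in cultured (1.11 ± 0.35) and in IL-1b-treated cells (0.92 ± 0.35), each against fresh cells. Of the 6 markers, 4 were higher and 2 lower in cultured than in fresh cells. Summed CD8 T cell markers were 23.8 to 25.6, 41.2 to 50.1 and 37.9 to 42.4 TPM, and erythroid markers 4.9 to 19.1, 0.47 to 4.09 and 0.2 to 1.82 TPM. The 6 stromal or endothelial markers summed to 149 to 162, 180 to 181 and 140 to 149 TPM, nearly all of it Pecam1, which T cells also express, while Pdgfra and Pdpn were at 0 throughout. The 5 platelet markers summed to 1.64 to 3.75, 2.91 to 5.43 and 1.24 to 2.68 TPM, nearly all of it Itga2b, with Ppbp and Gp1bb at 0. The part of these cells in the differences below was not tested, and fewer cells of a type cannot be told apart from less RNA per cell.

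The gene with the widest range, Acvr1c, encodes the activin and Nodal type I receptor ALK7 and spans chr2:58267453-58357895 on the minus strand (mm10). Acvr1b encodes the activin type I receptor ALK4 at chr15:101174067-101213684 on the plus strand, and Tgfbr2 lies at chr9:116084293-116175360 on the minus strand. The sequences before the start sites of these 3 receptor genes are shown because Acvr1c was near 0 in fresh cells and not in culture, Acvr1b went down most of the 5 receptor genes, and Tgfbr2 was the highest of the 10 per length. They are read from RefSeq on GRCm38.p6, 5′ to 3′ on the strand of the gene, with each CG dinucleotide in capitals. Each ends before the annotated gene, or before the RefSeq start where that comes first, as for Tgfbr2. The windows are chr2:58357896-58358008 (minus strand) for Acvr1c, chr15:101173822-101174066 (plus strand) for Acvr1b and chr9:116175364-116175613 (minus strand) for Tgfbr2.
Acvr1c: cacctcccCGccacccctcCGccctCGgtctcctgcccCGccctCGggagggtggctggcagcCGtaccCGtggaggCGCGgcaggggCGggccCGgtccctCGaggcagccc
Acvr1b: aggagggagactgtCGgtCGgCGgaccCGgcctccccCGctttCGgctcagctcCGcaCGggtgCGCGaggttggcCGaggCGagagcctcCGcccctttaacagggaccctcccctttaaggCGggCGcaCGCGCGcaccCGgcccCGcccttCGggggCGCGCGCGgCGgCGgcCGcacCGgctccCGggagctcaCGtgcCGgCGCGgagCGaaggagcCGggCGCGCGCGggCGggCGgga
Tgfbr2: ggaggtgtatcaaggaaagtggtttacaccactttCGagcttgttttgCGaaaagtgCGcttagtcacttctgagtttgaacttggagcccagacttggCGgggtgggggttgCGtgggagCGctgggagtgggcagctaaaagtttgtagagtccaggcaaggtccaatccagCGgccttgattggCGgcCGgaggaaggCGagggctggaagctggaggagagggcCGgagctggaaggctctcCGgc
The 250 bases before the RefSeq start held 32 CG dinucleotides at Acvr1c, 42 at Acvr1b and 12 at Tgfbr2, and the median over 32851 promoters of 27025 genes was 6. At Acvr1c only 113 of these bases lie outside the annotated gene and are printed above, with 12 CG dinucleotides. Fewer CG dinucleotides than at Acvr1c were found in 95.4% of these promoters, and fewer than at Tgfbr2 in 66.5%. So the gene near 0 in fresh cells and the receptor gene that was high there, Acvr1b, both had a start rich in CG, and the highest of all had one closer to the median. RefSeq gives Acvr1c a further start, with 2 CG dinucleotides before it, and Tgfbr1 starts with 29 and 3. The counts before the starts of Acvr2a, Tgfb1, Smad3 and Ski were 49, 21, 22 and 53.

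Smad3 and Smad4 bind DNA at CAGAC, the core of the Smad binding element. On either strand of these 250 bases, CAGAC had 1 match each before Tgfbr2, Acvr2a and the second Tgfbr1 start. That is 3 of the 10 promoters used, which belong to 8 of the genes, against 42.2% of all promoters. Smad7, on chromosome 18, was left out of this step, and Skil had no promoter entry. In the Tgfbr2 line above it is the cagac that follows ttggagcc. The doubled element GTCTAGAC, found in 0.167% of all promoters, and the AP-1 motif TGANTCA, in 6.75%, had no match in the 10. None of the 3 motifs contains another.

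Tgfb1 encodes TGF-beta 1, the main form made by T cells, at chr7:25687002-25705077. Its level was 144, 143 and 149 CPM in the fresh libraries, 75.1, 70.9 and 87 CPM in the cultured ones, and 62, 67.6 and 68.6 CPM in the IL-1b-treated ones. The 3 groups did not overlap, and fresh cells were the highest. The difference was -0.90 ± 0.06 between cultured and fresh cells, a 1.87-fold lower level, and -0.24 ± 0.07 between IL-1b-treated and cultured cells. Among other ligand genes the cells held little, as only 2 of the 23 listed ligands and antagonists passed the filter on low counts. Gdf11, a relative of myostatin, had 14.6 CPM in fresh and 11.2 CPM in cultured cells, and the activin subunit genes Inhba, Inhbb and Inha had 15, 0 and 0 counts over all 9 libraries.

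**Figure D1:**
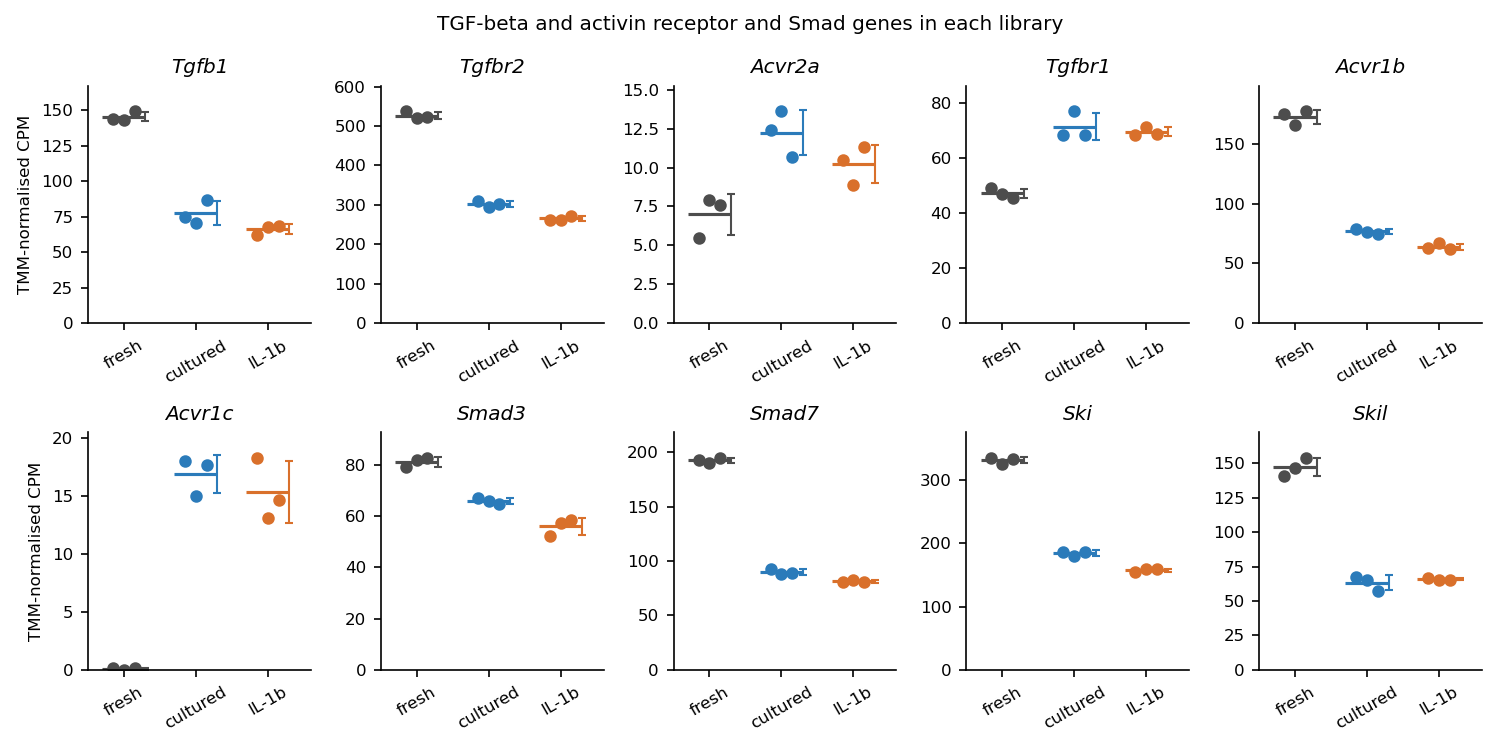
TMM-normalised CPM of the 10 genes (y axis, linear from 0) in each library (points) by group (x axis), with the mean (line) and SD of n = 3 (bar). In 7 panels the fresh libraries are the highest, in those of Acvr2a, Tgfbr1 and Acvr1c they are the lowest, and the Acvr1c points of fresh cells lie at 0 to 0.141 CPM.

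Tgfbr2, the type II receptor that binds TGF-beta, was the most abundant of the 10 genes per length in each group, at 176 TPM in fresh, 83.8 TPM in cultured and 59.4 TPM in IL-1b-treated cells. In CPM it was 537, 521 and 522 in fresh, 311, 294 and 302 in cultured, and 263, 262 and 273 in IL-1b-treated libraries. The groups did not overlap, in the order fresh, cultured, IL-1b-treated. The difference between cultured and fresh cells was -0.80 ± 0.03, or 1.74-fold lower, and that between IL-1b-treated and cultured cells -0.18 ± 0.03.

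Acvr2a, the type II receptor for activins, was at the other end, and went the other way. It had 5.5, 7.9 and 7.6 CPM in fresh, 12.4, 13.6 and 10.7 CPM in cultured, and 10.5, 8.9 and 11.3 CPM in IL-1b-treated libraries. All 6 libraries of cells kept in culture were above the fresh ones, and the cultured and IL-1b-treated libraries overlapped. Its log2 fold change was 0.82 ± 0.16 between cultured and fresh cells, and -0.26 ± 0.16 with IL-1b against cultured cells. Acvr2a, at chr2:48814109-48903269 on the plus strand, shares 446 of its 5686 exon bases (7.84%) with Orc4 on the opposite strand. Orc4 had 7579.27 counts over all libraries, 533% of those of Acvr2a, and the strand setting of the counting is not given in the sources used here, so part of the low Acvr2a count may be Orc4 reads. Per length, Acvr2a made up 1.13% ± 0.203 of the summed Tgfbr2 and Acvr2a TPM in fresh cells, 3.43% ± 0.461 in cultured and 3.24% ± 0.361 in IL-1b-treated cells.

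The type I receptor genes split in direction. Tgfbr1, the partner of Tgfbr2 (ALK5, chr4:47353222-47414931), had 49, 46.8 and 45.6 CPM in fresh, 68.4, 76.8 and 68.4 CPM in cultured, and 68.3, 71.2 and 68.8 CPM in IL-1b-treated libraries. The fresh libraries were the lowest, and the other groups overlapped. The difference was 0.59 ± 0.06 between cultured and fresh cells and -0.04 ± 0.06 with IL-1b. Acvr1b went down, from 175, 166 and 177 CPM in fresh to 78.7, 76.7 and 75 CPM in cultured and 62.7, 66.9 and 62.1 CPM in IL-1b-treated libraries. These groups did not overlap, and the log2 fold changes were -1.17 ± 0.05 (2.25-fold lower) and -0.27 ± 0.05.

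Acvr1c was counted with 3, 0 and 2 reads in the fresh libraries, 276, 242 and 284 in the cultured and 304, 182 and 219 in the IL-1b-treated ones. A floor of 3 counts equals 0.124 to 0.211 CPM in the fresh libraries, so the gene was at or under the limit of detection there. In the cultured libraries it had 18, 15 and 17.7 CPM and in the IL-1b-treated ones 18.3, 13.1 and 14.7 CPM, and these groups overlapped. From 5 counts in all fresh libraries to 802 in all cultured ones, the ratio per library size was 186, with an exact 95% interval of 79.5 to 575 for counting error only. The ratio was 171 (73 to 529) for IL-1b-treated against fresh cells. A fitted fold change of a gene so near 0 depends on the count added before taking logs and is not used here. Even where it was high, Acvr1c was a minor gene, with a mean of 3.13 TPM in cultured cells, and its deposited length varied from 6063 to 9161 bases among the 6 libraries, which moves its TPM.

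Added up per length, the type I receptor genes that reached 1 TPM in a group were Acvr1b, Tgfbr1, Acvr1c and Acvrl1, the last being ALK1, a receptor best known from endothelium. Their sum was 107 ± 4.17 TPM in fresh, 46.9 ± 0.831 TPM in cultured and 33.2 ± 1.23 TPM in IL-1b-treated cells. Acvr1b made up 59.8%, 51.7% and 48.6% of it, and Tgfbr1 13.8%, 38.9% and 43.1%. Acvrl1 gave 26.4%, 2.69% and 1.53%, and Acvr1c 0.0214%, 6.67% and 6.75%. Thus Acvrl1 was the second type I gene of fresh cells, and Tgfbr1 that of cells kept in culture. The TPM ratio of Acvr1b to Tgfbr1 went from 4.36 ± 0.453 in fresh to 1.33 ± 0.0709 in cultured and 1.13 ± 0.0168 in IL-1b-treated cells. The TPM ratio of Tgfbr2 to Tgfbr1, the pair that binds TGF-beta, went from 11.9 ± 0.956 to 4.6 ± 0.304 and 4.15 ± 0.233.

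**Figure D2:**
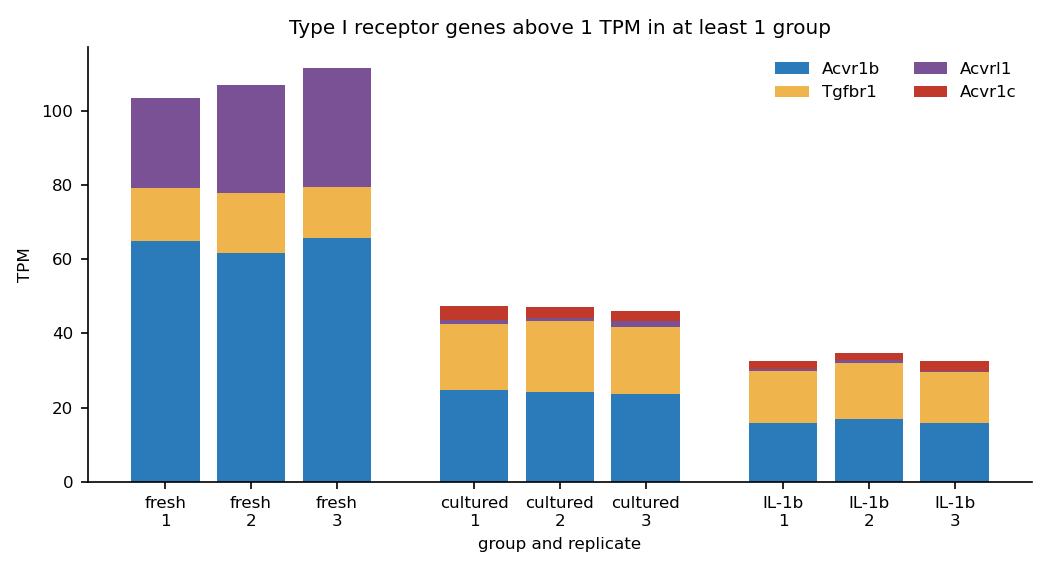
Stacked TPM (y axis, linear from 0) of the 4 type I receptor genes above 1 TPM in at least 1 group, for each library (x axis). The mean height is 107 TPM in fresh, 46.9 TPM in cultured and 33.2 TPM in IL-1b-treated cells, the Acvrl1 segment is large in fresh libraries alone, and the Acvr1c segment appears in the other 6.

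Smad3, the transducer at chr9:63646767-63757994, differed least between cultured and fresh cells. It had 79, 81.7 and 82.6 CPM in fresh, 67.1, 66 and 64.5 CPM in cultured, and 52.2, 57.1 and 58.4 CPM in IL-1b-treated libraries. The groups did not overlap, with a log2 fold change of -0.30 ± 0.06 between cultured and fresh cells and -0.24 ± 0.06 with IL-1b. After an adjustment of each library for its dependence on GC content and transcript length, the difference between cultured and fresh cells became 0.04, so the direction of Smad3 depends on that step.

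Smad7, the inhibitor of the receptor and itself a textbook target of TGF-beta, lies at chr18:75367529-75395935. It had 193, 190 and 195 CPM in fresh, 93, 87.8 and 89.2 CPM in cultured, and 80.5, 82.7 and 80.8 CPM in IL-1b-treated libraries. Again the groups did not overlap, and the differences were -1.10 ± 0.04 (2.14-fold lower) and -0.15 ± 0.05. The TPM ratio of Smad7 to Smad3 was 4.5 ± 0.354 in fresh, 2.7 ± 0.232 in cultured and 2.92 ± 0.363 in IL-1b-treated cells, so the inhibitor differed more than the transducer between fresh and cultured cells and the ratios of the latter groups overlapped.

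Ski and Skil (SnoN) are related repressors of Smad complexes, and Skil is another textbook target. Ski, at chr4:155154075-155222592, had 335, 326 and 333 CPM in fresh, 187, 180 and 187 CPM in cultured, and 155, 159 and 159 CPM in IL-1b-treated libraries, with differences of -0.84 ± 0.03 and -0.23 ± 0.04. Skil, at chr3:31095058-31122577, had 141, 147 and 154 CPM in fresh, 67.5, 65.2 and 57.5 CPM in cultured, and 67, 65.6 and 65.4 CPM in IL-1b-treated libraries. Its difference was -1.21 ± 0.06, or 2.32-fold lower, between cultured and fresh cells. With IL-1b the Skil libraries overlapped the cultured ones, at a difference of 0.06 ± 0.06. The TPM ratio of Ski to Skil was 2.22 ± 0.0904 in fresh, 3.28 ± 0.171 in cultured and 2.7 ± 0.12 in IL-1b-treated cells.

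The deposited gene length, which RSEM weights by the share of each isoform, does not enter CPM. It does enter TPM, so a shift in length also moves TPM values and their ratios, such as that of Ski to Skil. For Skil it was 5262 to 5465 bases in fresh, 5598 to 6201 bases in cultured and 5825 to 6340 bases in IL-1b-treated libraries, so both groups kept in culture lay above the fresh one. Of the 10485 genes whose length varied, 8.99% were separate in this direction between cultured and fresh cells and 9.2% between IL-1b-treated and fresh cells. For Tgfbr2 the lengths were 4865 to 4902, 4983 to 5013 and 4892 to 5066 bases, separate between cultured and fresh cells alone. For Ski they were 5387 to 5456, 5165 to 5312 and 5400 to 5447 bases, shorter in cultured than in fresh cells, as for 9.63% of these genes. Acvr1b at 4418 bases and Smad3 at 5090 bases had 1 length in all libraries.

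Between cultured and fresh cells 3 of the 10 genes were higher (Acvr1c, Acvr2a and Tgfbr1) and 7 lower. Over all genes tested, 58.2% were called, 29.4% higher and 28.9% lower. Since the genes were chosen with their values in all 3 groups known, nothing is read from their counts in this or the other comparisons. The CPM of the 3 cultured libraries lay all above the fresh ones for 3 of the 10 genes, against 32.7% of all genes, and all below for 7, against 32.8%. The median log2 fold change was -0.82 over the 10 genes and 0.00 over all genes. Of the 10, Acvr1b, Smad7 and Skil were at least 2-fold lower and Acvr1c at least 2-fold higher, and 6.83% and 5.85% of all genes were called at that size. After the adjustment for GC content and length Acvr1b was at -0.90 and Smad7 at -0.74, so that of these Skil alone stayed at least 2-fold lower. Against fresh cells, the IL-1b-treated ones had the same 3 genes higher and the same 7 lower, where 65.5% of all genes were called, 32.9% higher and 32.6% lower. This comparison shares its fresh libraries with the former and its IL-1b-treated ones with the next, so the values are not separate evidence. They were -1.44 for Acvr1b, -1.14 for Tgfb1, -0.98 for Tgfbr2, -0.54 for Smad3, -1.25 for Smad7, -1.07 for Ski, -1.16 for Skil, 0.56 for Acvr2a and 0.55 for Tgfbr1.

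Per length the whole sample shifts, and this bears on the smaller values. In log2(TPM + 0.5) the median over all tested genes was -0.21 for cultured against fresh cells, -0.28 for IL-1b-treated against cultured ones and -0.50 for IL-1b-treated against fresh ones. The medians of the 10 genes were -1.04, -0.49 and -1.58. Tgfbr1 and Acvr2a, higher in CPM in IL-1b-treated than in fresh cells, were -0.04 and -0.01 on this scale, which is 0.46 and 0.49 above the median gene. Tgfbr1 in TPM was 14.4, 16.1 and 13.9 in fresh, 17.6, 19 and 18.1 in cultured, and 13.9, 15.2 and 13.9 in IL-1b-treated libraries, so fresh and IL-1b-treated cells overlapped there. Between cultured and fresh cells Tgfbr1 was 0.30 and Acvr2a 0.47, and the 7 lower genes were lower by both scales.

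**Figure D3:**
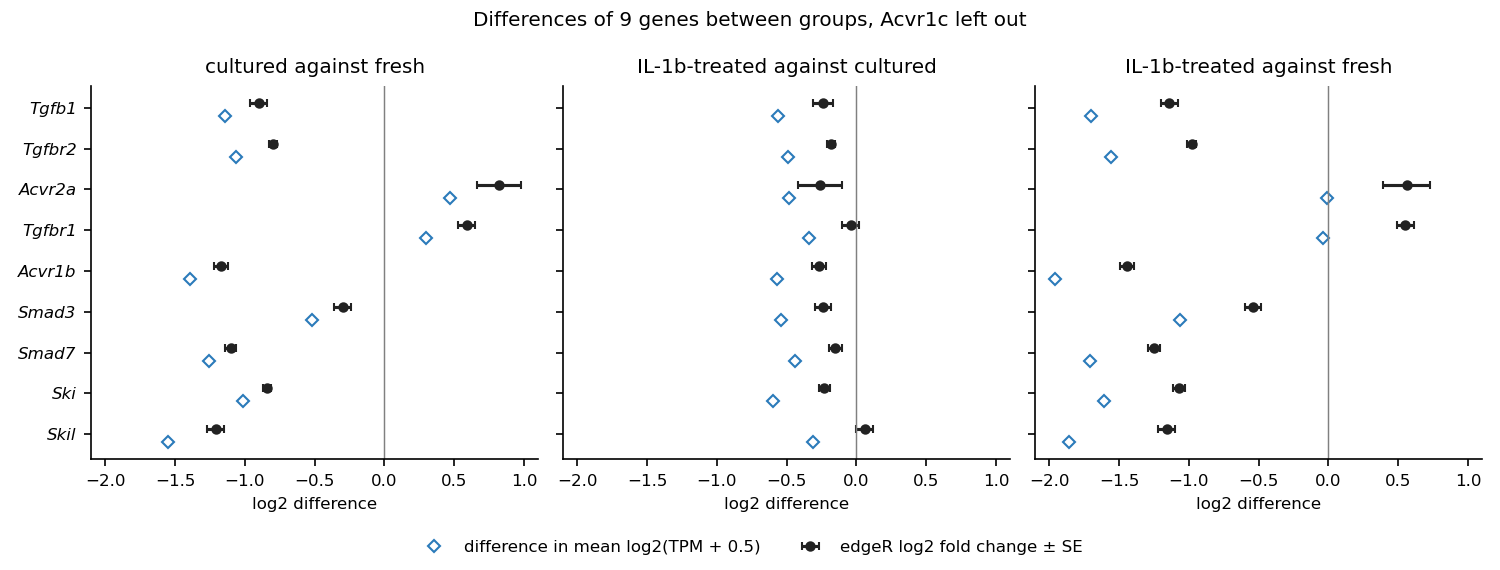
Log2 difference (x axis) of 9 of the genes (rows) in the 3 comparisons (panels), as the edgeR fold change with its SE (filled) and as the difference in mean log2(TPM + 0.5) (open). Acvr1c is left out because its fold rests on 5 counts in fresh cells, and the open symbols lie left of the filled ones, by about the shift of the median gene.

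With IL-1b against cultured cells, 6 of the 10 genes (Acvr1b, Tgfb1, Smad3, Ski, Tgfbr2 and Smad7) had their 3 IL-1b-treated libraries below the cultured ones in CPM, as 19.1% of all genes did, and Acvr1c, Acvr2a, Tgfbr1 and Skil overlapped. The 6 genes were 1.11 to 1.2-fold lower. Over all genes, 28.9% were called, 15.6% higher and 13.3% lower. The median was -0.21 over the 10 genes and -0.01 over all. In the ranges of transcript length that hold the 10 genes, chosen after the values were seen, the share of lower genes differed. Of the 1612 genes of 4000 to 6000 bases, among them 7 of the 10, 29.7% were called lower and 4.59% higher with IL-1b, with a median of -0.13. Of the 3280 genes of 2000 to 3000 bases, where Tgfb1 and Smad7 lie, 12.3% were lower and 11.9% higher, and of the 493 of 6000 to 9000 bases, where Acvr1c lies, 44.6% and 1.62%. Other lengths were not examined, and the part of length in the differences of the 10 genes was not tested.

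After the adjustment for GC content and length, the differences of Acvr1b, Tgfbr2, Smad3, Smad7 and Ski with IL-1b were -0.11, -0.03, -0.04, -0.01 and -0.03, and that of Tgfb1 was -0.19. Tgfb1 was -0.14 without cultured replicate 3. Skil went from 0.06 to -0.06 with library size alone, where the median of all genes was -0.12, and to -0.30 on log2(TPM + 1), where it was -0.27, so Skil lay within 0.1 of the median gene under these settings. Tgfbr1 went from -0.04 to 0.05 with the adjustment.

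**Figure D4:**
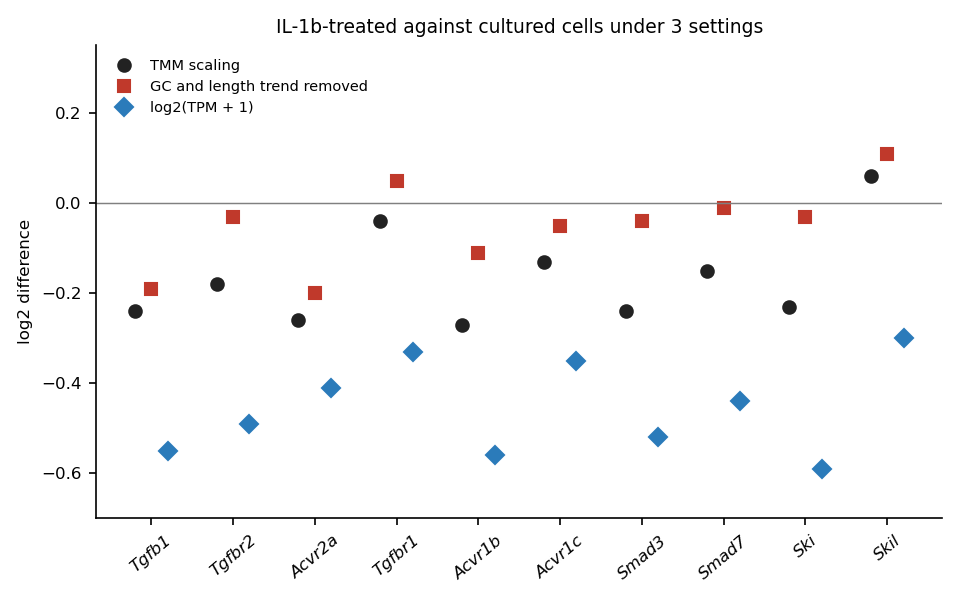
Log2 difference between IL-1b-treated and cultured cells (y axis) of the 10 genes (x axis) under 3 settings (circles, TMM scaling; squares, each library adjusted for its dependence on GC content and length; diamonds, limma on log2(TPM + 1)). The squares of Acvr1b, Tgfbr2, Smad3, Smad7 and Ski lie between -0.11 and -0.01, and all diamonds lie below 0, where the median gene is at -0.27.

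Per length, the order of the 10 genes changed in its lower part. In fresh cells it was Tgfbr2 (176 TPM), Tgfb1 (122), Smad7 (117), Ski (99.2), Acvr1b (64.1), Skil (44.8), Smad3 (25.9), Tgfbr1 (14.8), Acvr2a (2.01) and Acvr1c (0.0233), and of the neighbours only Tgfb1 and Smad7 overlapped. In cultured cells it was Tgfbr2 (83.8 TPM), Tgfb1 (55.4), Ski (48.9), Smad7 (48.4), Acvr1b (24.2), Tgfbr1 (18.2), Smad3 (17.9), Skil (14.9), Acvr1c (3.13) and Acvr2a (2.97). There Ski and Smad7, Tgfbr1 and Smad3, and Acvr1c and Acvr2a overlapped. Tgfbr1, below Skil in fresh cells, was above it here. In IL-1b-treated cells the TPM values were Tgfbr2 59.4, Tgfb1 37.3, Smad7 35.4, Ski 32.2, Acvr1b 16.2, Tgfbr1 14.3, Smad3 12.2, Skil 11.9, Acvr1c 2.23 and Acvr2a 1.99, and Tgfb1, Smad7 and Ski overlapped in a chain, as did Smad3 with Skil and Acvr1c with Acvr2a.

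The rest of the pathway was described from 7 lists of 115 other genes, written from general knowledge, of which 71 were tested. Between cultured and fresh cells 29 rose and 25 fell by the edgeR test, with a median of 0.20, beside the 29.4% higher and 28.9% lower of all genes. By limma on log2(TPM + 1) the split was 11 higher and 28 lower, with a median of -0.08, where all genes split into 1826 and 4697 with a median of -0.21. With IL-1b against cultured cells 6 rose and 14 fell, with a median of -0.10, beside 15.6% and 13.3% of all genes. On log2(TPM + 1) it was 0 and 34, with 296 and 4441 of all genes. Between IL-1b-treated and fresh cells 26 rose and 27 fell, with a median of 0.04, beside 32.9% and 32.6% of all genes, and on log2(TPM + 1) it was 5 and 41, with 1512 and 6850 of all genes.

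Of the other receptors, 5 of 7 were tested, and 2 rose and 1 fell in cultured against fresh cells, beside 29.4% and 28.9% of all genes. Acvrl1 had 39.2, 41.4 and 43.8 CPM in fresh, 1.82, 2.23 and 2.55 CPM in cultured, and 1.74, 1.58 and 0.671 CPM in IL-1b-treated libraries. The cultured libraries were all far below the fresh ones, with a log2 fold change of -4.23 ± 0.17 (edgeR adjusted p = 1.38e-15). Cdh5, a defining marker of endothelium, had means of 0.09, 0.03 and 0.02 TPM in fresh, cultured and IL-1b-treated cells, with 18 counts in all. The cell source of the Acvrl1 reads was not tested. With IL-1b, Acvrl1 fell by a further 0.72 ± 0.26 (edgeR adjusted p = 0.0419). This call of Acvrl1 was lost in 10 of 19 alternatives, 6 of which leave out 1 library (-0.72 to -0.40, the latter without IL-1b-treated replicate 3). Its adjusted p ran from 0.0155 to 0.234 over all 19. Acvr2b, the other activin type II receptor, rose from 0.307 ± 0.102 CPM in fresh to 1.54 ± 0.418 CPM in cultured cells. Its fresh level was near the floor of 3 counts, 0.124 to 0.211 CPM. Both activin type II genes were thus higher in cultured cells at low levels, and the Acvr2a count may include Orc4 reads. Bmpr2, the BMP type II receptor, rose from 8.12 to 13.4 CPM (0.72 ± 0.16).

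All 4 other Smads that were tested, of 6 listed, changed in cultured against fresh cells, 3 upward, where 58.2% of all genes changed and 29.4% rose. Smad2, the other transducer of TGF-beta and activin signals, rose by 0.35 ± 0.06, the shared partner Smad4 by 0.26 ± 0.04 and the BMP transducer Smad5 by 0.43 ± 0.05. On the TPM scale Smad2 was at -0.06, Smad4 at 0.05 and Smad5 at 0.13, where the median gene was at -0.21. Smad1, also a BMP transducer, fell by 0.77 ± 0.13. None of the 4 was called with IL-1b against cultured cells, where their values were 0.06 for Smad2, -0.09 for Smad4, -0.12 for Smad5 and -0.03 for Smad1. Smad6 and Smad9 had 3 and 5 counts in all.

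Of 20 tested textbook target genes, besides Smad7 and Skil above, 7 rose and 7 fell in cultured against fresh cells, beside 29.4% and 28.9% of all genes. Among those that fell were Junb, an AP-1 subunit, from 402 ± 29.4 to 55.9 ± 4.15 CPM (-2.85 ± 0.06), and Spsb1, an adaptor of ubiquitin ligases, from 32.4 ± 0.927 to 4.02 ± 0.916 CPM. Junb is also an immediate early gene, with inputs other than TGF-beta. Among those that rose were the Sp1-like repressor Klf11, from 4.32 ± 0.809 to 13.4 ± 1.01 CPM (1.65 ± 0.17), and the cell cycle inhibitor Cdkn1a, from 0.178 ± 0.273 to 1.13 ± 0.367 CPM. The Cdkn1a call was lost without fresh replicate 1, at 2.24, and with an effective length offset, at 2.45. Its fresh libraries had 0.0414, 0 and 0.493 CPM, where 3 counts equal 0.124 to 0.211 CPM. The size of its rise thus rests on values near the limit of detection. Ccn2, a standard target in fibroblasts, had 0 counts in all libraries. The targets moved in both directions, as did all genes tested.

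Of 29 tested Smad partners, ligases and phosphatases, 14 rose and 11 fell in cultured against fresh cells, beside 29.4% and 28.9% of all genes. Ppp1r15a (GADD34), which Smad7 brings together with a phosphatase to switch off the type I receptor, fell from 167 ± 1.25 to 24.4 ± 2.64 CPM (-2.77 ± 0.07). Hipk2, a nuclear kinase that binds Smad and Ski proteins, rose from 25.7 ± 1.08 to 67.6 ± 4.31 CPM (1.40 ± 0.07). With IL-1b Hipk2 fell to 49.3 ± 1.72 CPM (-0.46 ± 0.07, edgeR adjusted p = 2.96e-05). The histone acetyltransferases that act with Smad3, Crebbp (-0.37 ± 0.04) and Ep300 (-0.36 ± 0.04), fell too. The Crebbp call was lost with an effective length offset, and the calls of Hipk2 and Ep300 were kept in all 19 alternatives. Among called listed genes at 1 TPM or more, the largest rises with IL-1b were Id2, an inhibitor of DNA binding (0.28 ± 0.07), the glucocorticoid-induced Tsc22d3 (0.27 ± 0.03), the ubiquitin ligase part Fbxo3 (0.26 ± 0.06) and the integrin chain Itgb1 (0.24 ± 0.05). All 4 turned to between -0.03 and -0.06 on the TPM scales, where the median gene was lower too. After the adjustment for GC content and length, Id2 was at 0.08 and its call was lost. The Id2 call was also lost with library size alone and with an effective length offset. Those of Fbxo3 and Itgb1 were lost with library size alone, and that of Tsc22d3 was kept outside the TPM scales.

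Among 5 tested genes of TGF-beta latency and activation, 3 rose and 1 fell in cultured against fresh cells, beside 29.4% and 28.9% of all genes. Itgb3, an integrin chain that binds latent TGF-beta, rose from 243 to 336 CPM (0.47 ± 0.03), Furin, the protease that cleaves the Tgfb1 precursor, rose from 55.6 to 73.1 CPM (0.39 ± 0.07), and Nrros, an anchor of latent TGF-beta in myeloid cells, fell from 91.8 to 46.8 CPM (-0.97 ± 0.07). Of 9 tested co-receptors and membrane regulators, 1 rose and 3 fell, beside the same shares of all genes. The rise was Fkbp1a (FKBP12), which binds the type I receptor, from 111 to 187 CPM, and Tgfbr3, betaglycan, which presents TGF-beta to Tgfbr2, fell from 113 to 91.2 CPM (-0.31 ± 0.05).

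**Figure D5:**
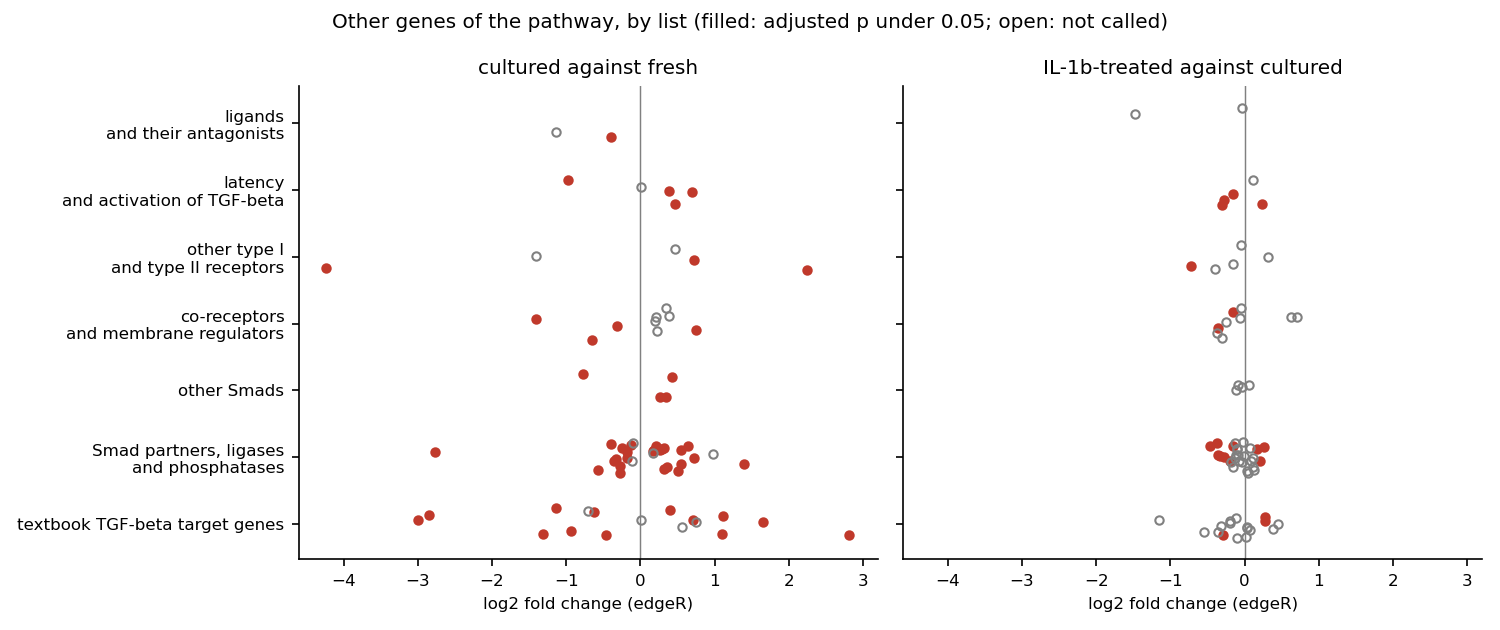
Log2 fold change (x axis, edgeR) of each tested gene of the 7 lists (rows) in 2 comparisons (panels), filled where the adjusted p was under 0.05. Between cultured and fresh cells 29 filled points lie right and 25 left of 0, with Acvrl1 at -4.23, and with IL-1b 6 lie right and 14 left, mostly within 0.5 of 0.

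For 9 of the 10 genes the genes nearest in profile were taken over all 9 libraries, by the root mean square difference of log2 CPM after centring. They were Rhobtb2 (0.0299) for Ski, Rcor1 (0.0305) for Tgfbr2, Jarid2 (0.0317) for Smad3, Prkch (0.0402) for Smad7, Prpf18 (0.0445) for Tgfbr1, Csk (0.0451) for Tgfb1, Gpr174 (0.0668) for Skil and Zbtb42 (0.0949) for Acvr2a. For Acvr1c the nearest was Map6 at 0.287, farther than for the other 8. The second in each case were B4galnt1, Pitpnm1, Sec24c, Gramd1a, Mier1, Cic, Fam111a, Ccl25 and, for Acvr1c, Akr1c18.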

How the data were processed

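The 9 libraries were grouped by their labels into fresh, cultured and IL-1b-treated cells, 3 each. Libraries came from a directional NEBNext Ultra II kit, per the labels' protocols. STAR and RSEM on mm10 are named in the submitters' processing notes; neither versions nor a strand setting appear in the sources used here. Per the file headers, the deposited tables hold RSEM expected counts, not normalised, which were rounded here. They also hold deposited TPM, FPKM (not used) and gene lengths.

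Of 55487 identifiers, 55141 (99.38%) matched a GENCODE M21 symbol. The test was that of edgeR 4.0.16 in R 4.3.3 (TMM, filterByExpr, quasi-likelihood F test, group as the only term, Benjamini-Hochberg, threshold 0.05). The biological coefficient of variation was 0.0665. Replicates varied more than counting error alone, at a chi-square per gene of 2.97 to 5.76. The scripts were tested on simulated data.

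The genes, the lists and the tests were chosen with earlier results of these data known. Named from the lists are, per comparison, the 4 called genes with the largest change each way at 1 TPM or more in 1 group, and the other receptors and Smads at 1 TPM or more; genes of other lists named beside them were chosen after their values were seen, and some genes are not reported here. The 19 alternatives of each fit used other scalings, no filter, DESeq2 1.42.0, limma 3.58.1 on log2(TPM + 1) and log2(TPM + 0.1), only the groups compared, a replicate block, an effective length offset, an adjustment of each library for a smooth dependence on GC content and length (mgcv 1.9.3), and leaving out each library. Python 3.11.15, pandas 2.3.3, scipy 1.17.1 and matplotlib 3.10.9 made the summaries and figures.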

Additional observations from a re-analysis of the deposited data

How the results depend on the processing

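Of 570 values of the 10 genes under the alternatives, 13 turned in sign. Of 454 values of the named listed genes, 426 kept their direction and side of the threshold, 20 lost the call and 8 turned. With IL-1b against cultured cells, 3768 genes were called, and 2151 with an effective length offset and 2357 with the adjustment for GC content and length; library size alone gave 1191 higher and 3273 lower and log2(TPM + 1) 296 and 4441, against 2037 and 1731. Of the listed genes 20 were called (6 higher, 14 lower), 34 on either TPM scale (0 and 34) and 9 with the offset (4 and 5). Skil with IL-1b against cultured cells was -0.06 with library size alone, -0.30 and -0.32 on log2(TPM + 1) and log2(TPM + 0.1), -0.01 with the offset, and -0.01 to 0.10 when 1 library was left out, below 0 without cultured replicate 3. Tgfbr1 was 0.05 with that adjustment and -0.07 to 0.02 with 1 library left out, above 0 without cultured replicate 2. On either TPM scale, Id2 and Tsc22d3 were at -0.05, Fbxo3 at -0.05 and -0.06 and Itgb1 at -0.03. Against fresh cells, Smad3 was 0.04 in cultured and 0.00 in IL-1b-treated cells with that adjustment, and Acvr2a and Tgfbr1 in IL-1b-treated cells were -0.01 and -0.04 on both TPM scales. The causes were not tested. Same-numbered replicates did not deviate together (correlations from -0.022 to 0.019), and with the replicate number as a block 3652, 7485 and 8454 genes were called in the order IL-1b-treated against cultured, cultured against fresh and IL-1b-treated against fresh, no sign of the 10 genes changed, and the call of Acvrl1 with IL-1b was lost. Depth limits Acvr1c in fresh cells, where 5 counts set the width of its interval.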
